A study of Mus musculus with 16 samples.

Results

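The proliferins are secreted glycoprotein hormones of the mouse prolactin family, encoded by the Prl2c genes. The members described here were Prl2c2, Prl2c3 and Prl2c5, found by current or older symbol, or by accession, among the probes of 16 mouse arrays. They had 5 probes of 41174 outside the controls. Prl2c3, named Plf2 in the scanner files, had 3 probes and Prl2c5, named Mrpplf4, had 2. No probe carried the name of Prl2c2, but 4 of the 5 list a Prl2c2 transcript among their targets. All 5 probes passed the filter on dim spots, and 2 of 18900 tested genes were therefore proliferins. The genes were chosen by their differences between overexpression lines and their own vector lines on these arrays, so those differences are given as descriptions with no p-value.

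Proliferins are known in the mouse placenta, where trophoblast giant cells secrete them at midgestation and they stimulate endothelial cell migration. They were also found as transcripts induced by serum and growth factors in cultured mouse fibroblasts, where AP-1 proteins and the glucocorticoid receptor act on a proliferin promoter. Proliferin binds the receptor for insulin-like growth factor 2 and mannose 6-phosphate, encoded by Igf2r.

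All samples were of the mouse mammary carcinoma line 4TO7, cultured with 10% serum, carrying pMSCV retroviral vectors with hygromycin or puromycin resistance. Each group had 2 arrays. Cells overexpressing Cluster 1 miRNAs were set against a Puro vector line, here the Puro vector for Cluster 1. Cells overexpressing CDH1, the human symbol for E-cadherin, had a separate Puro vector line, cells overexpressing Cluster 2 had a Hygro vector line, and cells overexpressing Clusters 1+2 had a line with Hygro and Puro vectors. Each sample shared its array with a universal mouse reference, RNA of 11 cell lines, and a level below is the log2 ratio of sample over reference. The sample carried Cy5 on the 8 arrays of Cluster 1, CDH1 and their controls, and Cy3 on the other 8. Cluster 1 and its control lay on slide 4, CDH1 and its control on slide 3, and each Cy3 group had repeat A on slide 1 and repeat B on slide 2. The series design calls the repeats biological replicates, and the sources used here do not say whether they were separate infections. P-values therefore measure the spread between these arrays only.

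The series concerns overexpression of the miR-200 family, small RNAs that hold epithelial cells in their state by repressing Zeb1 and Zeb2, repressors of E-cadherin. Its mature sequences are shown as the overexpressed agents, in RefSeq's annotation of GRCm38.p6, with the seed (bases 2 to 8) in capitals. The miRNAs of seed AAUACUG come first. The sources used here do not say which of these miRNAs the labels Cluster 1 and Cluster 2 mean.
mmu-miR-200b-3p: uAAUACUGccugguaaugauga
mmu-miR-200c-3p: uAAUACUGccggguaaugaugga
mmu-miR-429-3p: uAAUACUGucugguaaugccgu
mmu-miR-200a-3p: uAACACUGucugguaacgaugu
mmu-miR-141-3p: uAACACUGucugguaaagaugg

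The probes themselves show how far the array can separate the proliferins. The 3 brightest probes are printed 5′ to 3′ on the mRNA strand, as the scanner files give them. Capitals mark where A_52_P84814 and A_52_P619248 differ: they share 52 of 54 paired bases, with the substitutions G10C and T20G (positions in the Prl2c3 probe A_52_P84814 from its 5′ end) and 6 bases present in that probe only.
Prl2c3 probe A_51_P312779: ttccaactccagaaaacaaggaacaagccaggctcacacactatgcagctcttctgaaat
Prl2c3 probe A_52_P84814: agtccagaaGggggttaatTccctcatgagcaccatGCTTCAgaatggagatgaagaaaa
Prl2c5 probe A_52_P619248: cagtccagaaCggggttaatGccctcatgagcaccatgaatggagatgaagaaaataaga

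In build mm7 the files place the 3 Prl2c3 probes on an unplaced sequence, at Un_random:1010844-1010903 for A_51_P312779, Un_random:1010745-1010804 for A_51_P312780 and Un_random:1011041-1011975 for A_52_P84814. The last spans 935 bases for a probe of 60. The Prl2c5 probes lie at Un_random:1535003-1535062 (A_52_P619248) and Un_random:1534906-1534965 (A_52_P511450). A_52_P619248 is the only one of the 5 whose listed RefSeq transcripts are Prl2c5 alone. A_52_P511450 lists transcripts of Prl2c2, Prl2c3 and Prl2c5, and the 3 Prl2c3 probes list Prl2c2 with Prl2c3. A_52_P511450 and the 3 Prl2c3 probes each also list a RefSeq transcript that matched no gene of the annotation used here. Near-identical transcripts can hybridise to all 5 probes, so the values below belong to the proliferins as a group and only loosely to each gene.

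The RefSeq annotation of GRCm38.p6 places the 3 genes on chromosome 13 in the order Prl2c3, Prl2c2, Prl2c5, with 0 protein-coding genes between them. The promoters of Prl2c3 (chr13:12800030-12800329, minus strand) and Prl2c5 (chr13:13182466-13182765, plus strand), from 250 bases before to 50 after the annotated start, are printed from RefSeq because both genes had differences of the same sign in every comparison below. They are 95.7% identical over 300 aligned columns, of which 299 are paired bases, with 12 substitutions. Capitals mark matches, found on either strand, to TGANTCA, a form of the AP-1 site, and to AGATAA, a form of the GATA site.
Prl2c3 promoter: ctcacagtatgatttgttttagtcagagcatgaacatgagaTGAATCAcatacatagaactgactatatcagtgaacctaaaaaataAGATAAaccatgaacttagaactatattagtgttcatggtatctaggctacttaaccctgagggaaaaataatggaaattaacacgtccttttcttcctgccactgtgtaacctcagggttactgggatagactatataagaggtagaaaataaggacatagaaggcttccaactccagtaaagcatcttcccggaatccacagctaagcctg
Prl2c5 promoter: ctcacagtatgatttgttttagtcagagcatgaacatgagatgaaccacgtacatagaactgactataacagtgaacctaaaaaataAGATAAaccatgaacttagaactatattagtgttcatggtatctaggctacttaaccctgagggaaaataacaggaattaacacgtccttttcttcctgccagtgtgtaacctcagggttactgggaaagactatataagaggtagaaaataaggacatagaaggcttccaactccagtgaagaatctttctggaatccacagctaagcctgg

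The AP-1 form is present in the Prl2c3 promoter at -209 from the start and not in the Prl2c5 window, and 7.81% of 32851 mouse promoters of this length hold it. AGATAA lies at -163 in both, and 11.2% of all promoters hold it. Neither window holds TGATAA (9.05% of all promoters), the glucocorticoid receptor motif TGTTCT (19%), the ZEB E-box CAGGTG (20.2%) or TATAAA (13.6%). A match is an exact run of letters and not a shown binding site. Other forms of these sites were not searched, so a missing match does not show that a site is absent.

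Proliferin probes gave bright spots in 4TO7 cells on the Cy3 arrays and dimmer ones on the Cy5 arrays. Over the 5 probes, the sample channel ran from 29.9 to 1412 on the Cy5 arrays and from 375 to 8888 on the Cy3 arrays. The reference channel ran from 20.2 to 170 and from 126 to 1783 on the same sets of arrays, although it held the same reference RNA, and no spot was saturated. Over all probes the median reference signal per array lay between 33.4 and 46.5 on the Cy5 arrays and between 155 and 217 on the Cy3 arrays. Dye, slide and line cannot be told apart between these sets of arrays, so levels are ranked only within each set.

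On the Cy5 arrays the reference signal of the proliferin probes also differed between groups. For A_52_P619248 it was 58.1 and 66.5 on the Cluster 1 arrays, against 115 and 128 on those of their Puro vector. It was 109 and 170 on the CDH1 arrays, against 72.3 and 90.7 on those of their Puro vector. The reference was thus low where the sample was low and high where it was high, as the plot of raw signals shows. What moved the reference signal was not tested. With the sample channel alone, the median difference of the 2 genes was -2.02 in Cluster 1 and 1.24 in CDH1, of the same sign as the differences of ratios below. Both differences were larger on this scale than as ratios in Cluster 1, and so was Prl2c5 in CDH1, while Prl2c3 in CDH1 was 1.03 on this scale and 1.07 as a ratio.

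**Figure D1:**
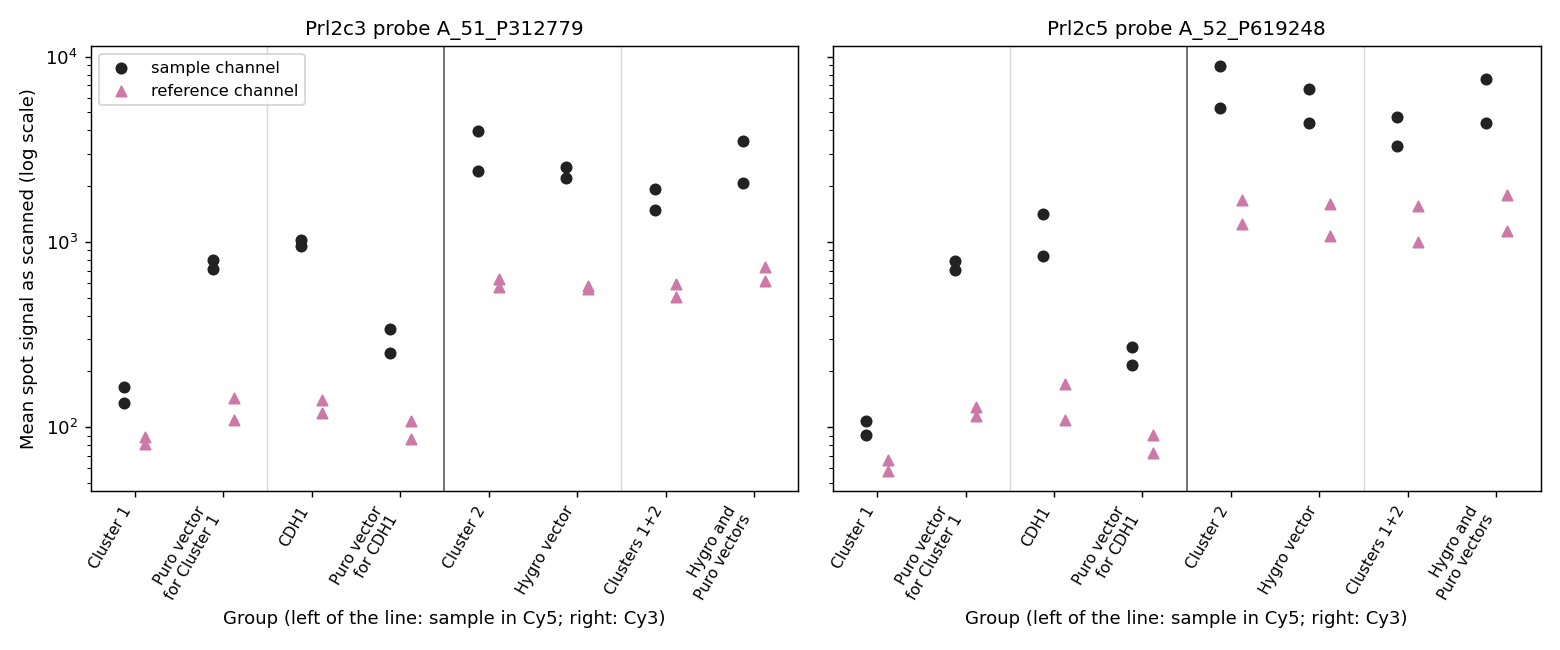
Mean scanned signal (log axis) of the Prl2c3 probe A_51_P312779 and the Prl2c5 probe A_52_P619248 on each of 16 arrays, by group, with circles for the sample channel and triangles for the reference RNA. Cluster 1 has the lowest sample signals of the Cy5 arrays (90.5 and 108 for A_52_P619248), and the reference channel is several times dimmer on the Cy5 arrays than on the Cy3 arrays.

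Proliferin levels were lower in Cluster 1 cells than in their Puro vector line. The Prl2c5 probe A_52_P619248 had log2 ratios of -0.14 and 0.03 in Cluster 1 cells, against 1.48 and 1.52 in the Puro vector for Cluster 1. The Prl2c3 probe A_51_P312779 had -0.09 and 0.08 in Cluster 1 cells, against 1.51 and 1.43 in the vector line. Both Cluster 1 arrays lay below both vector arrays for both genes, which 24.2% of 18155 genes did. The difference was -1.56 (SE 0.0884) for Prl2c5 and -1.47 (SE 0.106) for Prl2c3 on the log2 scale, or 2.94-fold and 2.78-fold lower. These placed Prl2c5 at rank 3 and Prl2c3 at rank 4 from the lowest of 18883 genes, where 8.3% of all genes were called changed at an adjusted p below 0.05 (limma). This contrast was among those that chose the members, so nothing is read from that share.

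The 2 brighter of the other probes also had lower values in Cluster 1 cells than in the vector line. A_52_P84814 had -0.08 and -0.00 in Cluster 1 cells, against 1.09 and 1.47 in the vector line, a difference of -1.32 (SE 0.111). A_52_P511450 had -0.26 and 0.13 in Cluster 1 cells, against 0.90 and 0.93, a difference of -0.98 (SE 0.117). Each of these was well above background on 1 of the 2 Cluster 1 arrays. A_51_P312780 was well above background on 0 of the 8 Cy5 arrays, so it gave no fold there. Set against the Puro vector line made for CDH1, on another slide, Cluster 1 cells differed by -0.63 (SE 0.0884) for Prl2c5 and -0.64 (SE 0.106) for Prl2c3. The median of the 2 genes was -0.999 where spots marked as outliers were kept.

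CDH1 cells had more proliferin RNA than their Puro vector line. The Prl2c5 probe A_52_P619248 had 1.67 and 1.79 in CDH1 cells, against 0.67 and 0.48 in the Puro vector for CDH1. The Prl2c3 probe A_51_P312779 had 1.77 and 1.66 in CDH1 cells, against 0.70 and 0.58. The arrays of both groups did not overlap for either gene, and 28% of 18118 genes likewise had both CDH1 arrays above both vector arrays. The differences were 1.16 (SE 0.0884, 2.23-fold) for Prl2c5 and 1.07 (SE 0.106, 2.10-fold) for Prl2c3. They stood at rank 12 and rank 17 from the highest of 18891 genes, of which 14.6% were called changed.

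Of the other probes, A_52_P84814 had 1.66 and 1.77 in CDH1 cells, against 0.35 and 0.12, a difference of 1.48 (SE 0.111). A_52_P511450 had 1.22 on the CDH1 array B, against 0.16 and 0.31 in the vector line, since the software marked its spot on array A. Set against the other Puro vector line, the one for Cluster 1, CDH1 cells differed by 0.23 (SE 0.0884) for Prl2c5 and 0.24 (SE 0.106) for Prl2c3.

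Clusters 1+2 cells had lower proliferin levels than the line with Hygro and Puro vectors, by a smaller margin. The Prl2c5 probe A_52_P619248 had 2.31 and 2.40 in Clusters 1+2 cells, against 2.73 and 2.88 in the double vector line. The Prl2c3 probe A_51_P312779 had 2.45 and 2.26, against 2.92 and 2.70. Both arrays lay below both vector arrays for both genes, as for 28.5% of 17990 genes. The differences were -0.45 (SE 0.0884) for Prl2c5 and -0.46 (SE 0.106) for Prl2c3, or 1.37-fold lower for each, at ranks 1247 and 1226 from the lowest of 18870 genes. In this comparison 24.9% of genes were called changed.

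Within slide 1 the Clusters 1+2 difference was -0.42 for Prl2c5 and -0.47 for Prl2c3, and within slide 2 it was -0.48 and -0.44 for the same genes. The remaining 3 probes gave differences between -0.63 (A_52_P84814) and -0.53 (A_52_P511450), and A_51_P312780, well above background on all Cy3 arrays, gave -0.56 (SE 0.128). All 5 probes were thus lower in Clusters 1+2 cells.

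Cluster 2 cells had proliferin levels near those of the Hygro vector line. The Prl2c3 probe A_51_P312779 had 3.05 and 2.89 in Cluster 2 cells, against 3.16 and 3.01, and the arrays of the groups overlapped. The Prl2c5 probe A_52_P619248 had 2.76 and 2.84, against 3.09 and 3.06, with both Cluster 2 arrays the lower, as for 22.4% of 18274 genes. The differences were -0.12 (SE 0.106) for Prl2c3 and -0.27 (SE 0.0884) for Prl2c5. Within slides they were -0.11 and -0.12 for Prl2c3 and -0.33 and -0.21 for Prl2c5. The other probes lay between -0.28 (A_52_P84814) and -0.06 (A_51_P312780). With median centring of each array in place of loess, which set the median of all genes at 0.14, the sign turned, to 0.14 for Prl2c3 and 0.02 for Prl2c5. In this comparison 2.8% of genes were called changed.

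**Figure D2:**
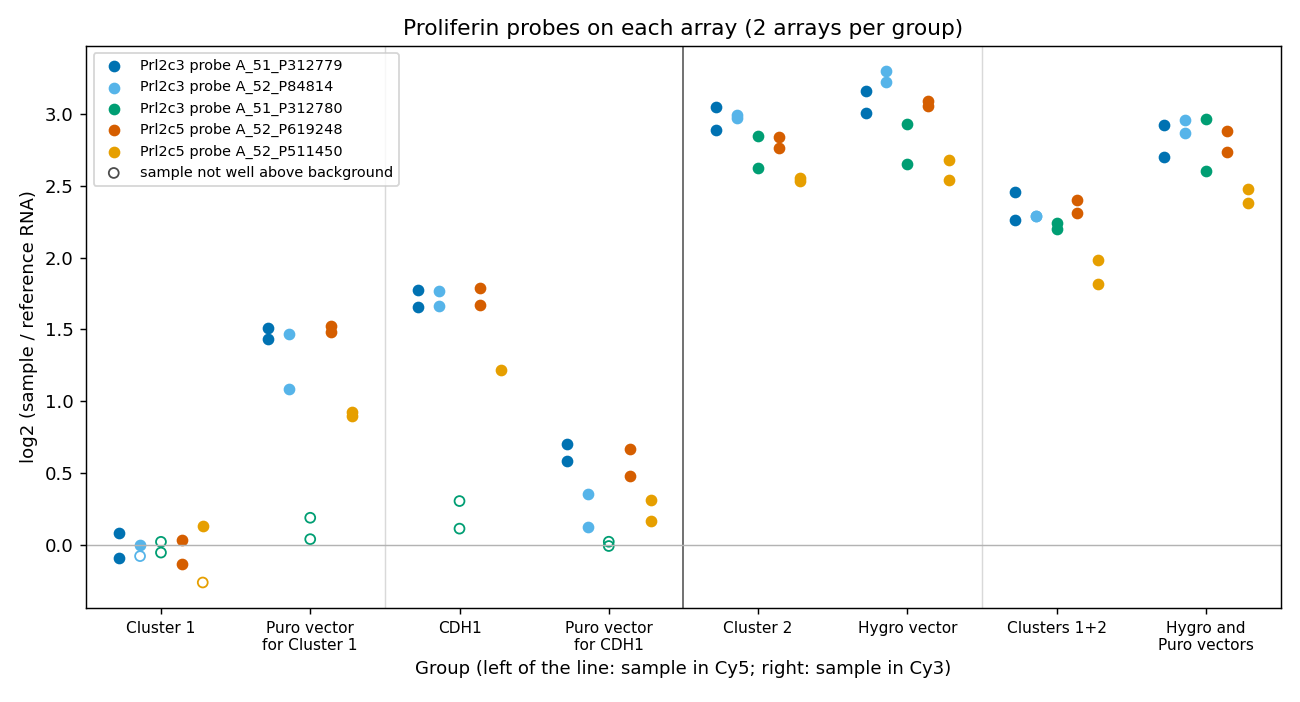
Log2 ratio of sample over reference RNA (vertical axis) for the 5 proliferin probes on each array, with 2 arrays per group and each overexpression group left of its vector group; open circles were not well above background. Cluster 1 arrays lie around 0 while their Puro vector arrays reach 1.52, CDH1 arrays reach 1.79, and the Cy3 arrays to the right of the line lies between 1.82 and 3.30.

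Among the Cy5 arrays, mean levels of the Prl2c3 probe ran from CDH1 cells (1.71 ± 0.08, SD, n = 2 in each group) to the Puro vector for Cluster 1 (1.47 ± 0.06), the Puro vector for CDH1 (0.64 ± 0.09) and Cluster 1 cells (-0.00 ± 0.12). The Prl2c5 probe had the same order, at 1.73 ± 0.09, 1.503 ± 0.028, 0.57 ± 0.13 and -0.05 ± 0.12. Neighbouring groups in this order lay on different slides, so line and slide cannot be told apart between them. Among the Cy3 arrays the Prl2c3 probe ran from the Hygro vector (3.08 ± 0.11) to Cluster 2 (2.97 ± 0.11), the double vector line (2.81 ± 0.16) and Clusters 1+2 (2.36 ± 0.14). For the Prl2c5 probe the Hygro vector was again highest (3.07 ± 0.02) and Clusters 1+2 lowest (2.36 ± 0.06). Cluster 2 (2.80 ± 0.06) and the double vector line (2.81 ± 0.11) overlapped between them.

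The vector lines also differed among themselves. Their arrays are the control side of the differences that chose the members, so these values too are descriptions with no test. The Puro vector line for Cluster 1 had more proliferin than the Puro vector line for CDH1, by 0.93 for Prl2c5 (SE 0.0884) and by 0.83 for Prl2c3 (SE 0.106). Both arrays of the first were above both of the second for each gene, as for 26.6% of 17979 genes, and 10.1% of 18888 genes were called changed (4.89% higher and 5.23% lower). Each of these lines lay on a slide of its own, so line and slide cannot be told apart. The difference between these control lines was thus 1.91-fold for Prl2c5 and 1.78-fold for Prl2c3, beside 2.94-fold and 2.78-fold for the same genes between Cluster 1 cells and their control.

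The Cy3 control lines shared slides with each other. Proliferin levels in the line with Hygro and Puro vectors differed from those in the Hygro vector line by -0.26 for Prl2c5 (SE 0.0884) and by -0.27 for Prl2c3 (SE 0.106), with 0.0371% of 18854 genes called changed.

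**Figure D3:**
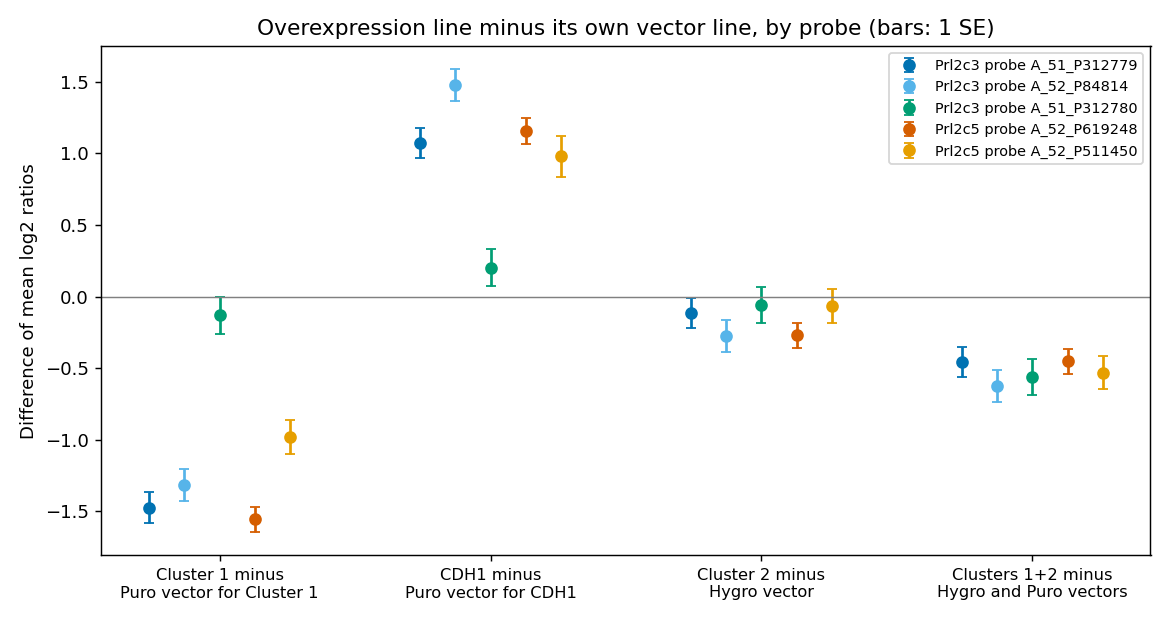
Difference of mean log2 ratios, overexpression line minus its own vector line (vertical axis, bars 1 SE, 2 arrays per group), for each of the 5 probes. All 5 lie below 0 in Cluster 1, Cluster 2 and Clusters 1+2 and above 0 in CDH1; A_51_P312780 lies near 0 in Cluster 1 and CDH1, where its spots were not well above background.

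The 2 genes followed each other across arrays. With the mean of its own vector group taken off each array, their log2 ratios correlated at r = 0.985 over 16 arrays, which share cross-hybridising targets, so this is a description. By the same measure, the 8 genes most like the average proliferin profile among 13206 were Slbp, Ppil1, Pus7, Rfc5, Dhx9, Zfp131, Mtbp and Orc6, with r between 0.972 and 0.979. Slbp, which binds the stem-loop of histone mRNAs, differed by -0.57 in Cluster 1 and 0.35 in CDH1 from their vector lines. Orc6, a subunit of the origin recognition complex, differed by -0.52 and 0.55 in the same comparisons. All 8 moved less than the proliferins in Cluster 1, with differences from -0.57 to -0.30, and in CDH1, with differences from 0.21 to 0.55. In Cluster 2 their differences lay between -0.14 and -0.01, beside -0.12 for Prl2c3 and -0.27 for Prl2c5.

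Of 24 other genes of the prolactin family, 21 had a probe and 9 passed the filter on dim spots. None of the lists below was chosen without sight of earlier results from these arrays. In Cluster 1, 2 of the 9 fell and 0 rose (3.42% of all genes fell): Prl3d1 and Prl3d2, which encode placental lactogen I hormones of trophoblast giant cells. Prl3d1 had -0.03 and 0.13 in Cluster 1 cells, against 0.58 and 0.48 in the vector line, a fall of -0.48 (limma, adjusted p = 0.0415). The Puro vector lines share arrays with this comparison and differed for Prl3d1 by 0.56 (the line for Cluster 1 minus the line for CDH1, limma, adjusted p = 0.0161), and the CDH1 vector arrays had -0.05 and -0.00. Prl3d2 had -0.01 and 0.04, against 0.48 and 0.77, a fall of -0.61 (limma, adjusted p = 0.0443), and was well above background on 1 of 2 Cluster 1 arrays. The Prl3d2 probe lists transcripts of Prl3d1, Prl3d2 and Prl3d3, so these probes may read the same RNAs. Neither call remained when any 1 of the 4 arrays was left out, and they were called under 4 and 3 of 6 other settings of background and scaling.

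In Clusters 1+2 cells, Prl3d1 and Prl3d2 fell again (12.8% of all genes fell) and Prl2a1 rose (12.1% rose). Prl3d2 had 0.67 and 0.44 in Clusters 1+2 cells, against 2.19 and 1.59 in the double vector line, a fall of -1.33 (limma, adjusted p = 7.02e-05), and was well above background on 1 of 2 Clusters 1+2 arrays. Prl3d1 had 0.28 and 0.04, against 1.15 and 0.75, a fall of -0.79 (limma, adjusted p = 0.000619). Prl2a1 had 1.43 and 1.42, against 0.43 and 0.44, a rise of 0.99 (limma, adjusted p = 2.86e-05), and was well above background on 1 of 2 double vector arrays. These 3 calls held with any single array left out.

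In Cluster 2, 2 of the 9 rose and 0 fell (1.75% of all genes rose and 1.05% fell). Prl8a9 had 2.28 and 2.23 in Cluster 2 cells, against 1.36 and 1.42 in Hygro vector cells, a rise of 0.87 (limma, adjusted p = 0.00488) called under 2 of 6 other settings. Prl2a1 was well above background on 0 of the Hygro vector arrays and on 1 of the 2 Cluster 2 arrays, and was at least 1.32-fold higher in Cluster 2 cells (limma, adjusted p = 0.00982), a call made under 0 of 6 other settings. In CDH1 cells 0 of 8 tested family members were called by limma (14.6% of all genes were) and 1 had an unadjusted p under 0.05, with a median difference of 0.08 against 0.01 for all genes. Prl3d1 and Prl3d2 differed by 0.21 and 0.13 there. The median of the family was -0.02 in Cluster 1, 0.25 in Cluster 2 and 0.18 in Clusters 1+2, against 0.01, -0.00 and 0.00 for all genes in the same comparisons.

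**Figure D4:**
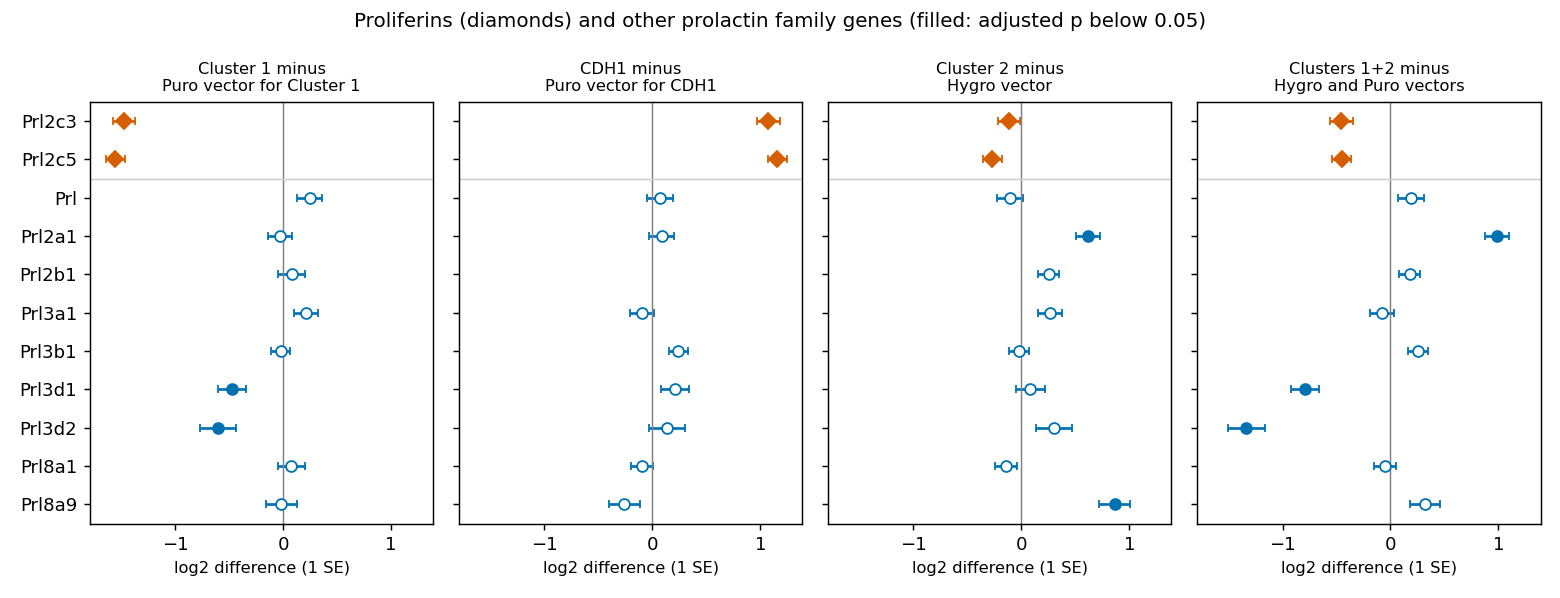
Difference of mean log2 ratios (horizontal axis, bars 1 SE) of Prl2c3 and Prl2c5 (diamonds, no test) and of the 9 other prolactin family genes that passed the filter (circles, filled where the limma adjusted p is below 0.05), in 4 comparisons of an overexpression line with its vector line. The proliferins lie apart from most of the family in Cluster 1 and CDH1, and filled circles are Prl3d1 and Prl3d2 to the left in Cluster 1 and Clusters 1+2, Prl2a1 to the right in Cluster 2 and Clusters 1+2, and Prl8a9 to the right in Cluster 2.

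4TO7 cells are labelled a mammary carcinoma line, and the epithelial keratins Krt8 and Krt18 were above background on all 16 arrays. All 6 epithelial and all 4 mesenchymal markers passed the filter. Of 4 trophoblast giant cell markers, Prl3d1 and Prl3b1 were above background on 16 arrays, and Hand1, the basic helix-loop-helix factor of giant cells, and Ctsq, a placental cathepsin, on 0. Of 22 trophoblast factors and placental genes, 8 passed the filter. In Cluster 1, 0 of the 8 were called by limma (8.3% of all genes were) and 2 had an unadjusted p under 0.05. In Clusters 1+2, 1 rose and 2 fell (12.1% and 12.8% of all genes). In Cluster 2, 1 rose and 0 fell (1.75% and 1.05%), and in CDH1, 2 rose and 0 fell (7.69% and 6.91%). Plac1, a placental gene of the X chromosome, rose in Clusters 1+2 by 0.96 (limma, adjusted p = 2.38e-05) and in Cluster 2 by 0.48 (limma, adjusted p = 0.0301, called under 1 of 6 other settings and with 1 of 4 arrays left out), where it was well above background on 1 of 2 Hygro vector arrays.

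Gata2 and Gata3, GATA factors that act on prolactin family promoters in trophoblast, went lower in Clusters 1+2 and higher in CDH1. Gata3 had 1.26 and 1.30 in Clusters 1+2 cells, against 2.10 and 2.02, a fall of -0.78 (limma, adjusted p = 1.94e-05). Gata2 had -0.75 and -0.75, against -0.17 and -0.15, a fall of -0.59 (limma, adjusted p = 8.56e-05). In CDH1 cells Gata2 rose by 0.37 (limma, adjusted p = 0.00588) and Gata3 by 0.28 (limma, adjusted p = 0.0453, not called when any 1 of the 4 arrays was left out). The Gata2 call in CDH1 was lost with 1 array left out and was made under 4 of 6 other settings. Over the same 6 settings the Gata3 difference in CDH1 ran from 0.03 to 0.49, and Gata3 was called under 2. In Cluster 1 neither passed the test.

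All 6 genes listed for proliferin binding and for prolactin family receptors passed the filter. Igf2r, which binds proliferin, had 0.45 and 0.55 in CDH1 cells, against 1.14 and 0.96 in their vector line, a fall of -0.55 (limma, adjusted p = 0.000289). It fell by 0.63 in Clusters 1+2 (limma, adjusted p = 3.45e-05) and by 0.37 in Cluster 2 (limma, adjusted p = 0.0143, called under 2 of 6 other settings). In Cluster 1 cells Igf2r had 1.22 and 1.28, against 1.29 and 1.25, and was not called. Ghr, the growth hormone receptor, fell by 0.48 in Cluster 1 (limma, adjusted p = 0.00247) and by 1.14 in Clusters 1+2 (limma, adjusted p = 3.9e-07) and rose by 0.38 in CDH1 (limma, adjusted p = 0.00581). The calls of Igf2r in Cluster 2 and of Ghr in CDH1 were lost with at least 1 array left out. In Cluster 1, 1 of the 6 rose and 1 fell (4.89% and 3.42% of all genes), and in Cluster 2, 0 rose and 1 fell (1.75% and 1.05%). In Clusters 1+2, 1 rose and 2 fell (12.1% and 12.8% of all genes), and in CDH1, 2 rose and 2 fell (7.69% and 6.91%).

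M6pr, the cation-dependent mannose 6-phosphate receptor, rose by 0.43 in CDH1 (limma, adjusted p = 0.00174). Its rise of 0.22 in Clusters 1+2 (limma, adjusted p = 0.0437) was called under 0 of 6 other settings and turned to -0.13 with the sample channel alone. Igf2, the growth factor ligand of Igf2r, fell by 0.59 in CDH1 (limma, adjusted p = 0.0012). M6pr and Igf2 were also higher in the Puro vector line for Cluster 1 than in the one for CDH1, by 0.34 and 0.51 (limma, adjusted p = 0.0101 and 0.00481); for Igf2 that sign turned under 3 of 6 other settings. Igf1r rose by 0.30 in Cluster 1 (limma, adjusted p = 0.0255) and was not called when any 1 of the 4 arrays was left out. The median of the list was 0.05 in Cluster 1, -0.08 in Cluster 2, -0.03 in Clusters 1+2 and 0.01 in CDH1.

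The AP-1 list held 13 subunits, all tested. In Cluster 1, 4 rose (4.89% of all genes) and 2 fell (3.42%), with a list median of 0.29 against 0.01 for all genes. Jun had -0.64 and -0.66 in Cluster 1 cells, against -0.24 and -0.32, a fall of -0.37 (limma, adjusted p = 0.00331). Junb fell by 0.36 (limma, adjusted p = 0.011), and Jund rose by 0.45 (limma, adjusted p = 0.0216), as did Batf by 0.46 (limma, adjusted p = 0.0166). Of the 6 calls in Cluster 1, the call of Jun held with any single array left out and the others did not.

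Clusters 1+2 had 5 AP-1 subunits that rose and 3 that fell (12.1% and 12.8% of all genes). Jund had 0.41 and 0.40 in Clusters 1+2 cells, against -1.33 and -1.01 in the double vector line, a rise of 1.57 (limma, adjusted p = 3.26e-07). Jun had -1.27 and -1.19, against -0.38 and -0.46, a fall of -0.81 (limma, adjusted p = 1.29e-06). Mafk, a small Maf protein, rose by 1.12 (limma, adjusted p = 2.51e-07) and Fosl1 fell by 0.69 (limma, adjusted p = 0.000161).

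In Cluster 2, 3 AP-1 subunits rose and 1 fell (1.75% and 1.05% of all genes). Jund rose by 0.45, Mafk by 0.43 and Junb by 0.39, and Jun fell by 0.36, with limma adjusted p of 0.0416, 0.00719, 0.014 and 0.00801. Each of these 4 lost its call with at least 1 array left out. Of 6 other settings, Jund was called under 1, Mafk and Jun under 2 each and Junb under 3. In CDH1, 2 rose and 2 fell (7.69% and 6.91% of all genes): Batf3 by 0.65 and Junb by 0.36 higher, and Maff by -0.55 and Jun by -0.37, with limma adjusted p of 0.000346, 0.00685, 6.33e-05 and 0.00197, and the call of Junb was lost with 1 array left out. The Puro vector line for Cluster 1 differed from the one for CDH1, which is the control here, by 0.66 for Batf3, -0.52 for Maff and -0.34 for Jun (limma, adjusted p = 0.000458, 0.00015 and 0.00424). Mean levels in CDH1 cells and the Puro vector line for Cluster 1 were 0.78 and 0.79 for Batf3, and -0.30 and -0.28 for Jun. Of 6 other settings, Jun was called lower than in the own vector line under 5 in Cluster 1, 6 in Clusters 1+2, 2 in Cluster 2 and 3 in CDH1.

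The glucocorticoid list, the receptor and genes known to respond to it, had 11 tested members of 12. In Cluster 1, 2 fell and 0 rose (3.42% and 4.89% of all genes): the metallothioneins Mt1, by 0.58 (limma, adjusted p = 0.000785), and Mt2, by 0.46 (limma, adjusted p = 0.0131, lost without some single arrays). The Mt2 spot was marked on array A of the Puro vector for Cluster 1, so its control was 1 array. In Cluster 2, 0 of 11 were called by limma (2.8% of all genes were) and 1 had an unadjusted p under 0.05. In Clusters 1+2, 5 fell and 0 rose (12.8% and 12.1% of all genes), led by Mt2 (-1.62, limma, adjusted p = 1.18e-07), Mt1 (-1.12, limma, adjusted p = 5.93e-07), the kinase gene Sgk1 (-0.65, limma, adjusted p = 0.00016) and Fkbp5 (-0.50, limma, adjusted p = 0.0011). The list median there was -0.38, against 0.00 for all genes.

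In CDH1 cells 6 of the 11 fell and 1 rose (6.91% and 7.69% of all genes), with a median of -0.33. Hsd11b1, which reactivates glucocorticoids, fell by 1.72 (limma, adjusted p = 0.000305) and Tsc22d3 by 0.86 (limma, adjusted p = 0.00552). Per1, a clock gene, fell by 0.93 (limma, adjusted p = 0.00725) but differed by 0.35 with the sample channel alone, and was well above background on 1 of 2 control arrays. Mt2 fell by 0.50 (limma, adjusted p = 0.00494), against 1 control array since its spot on array B of the Puro vector for CDH1 was marked, and Mt1, the 1 that rose, by 0.37 (limma, adjusted p = 0.00849). The calls of Tsc22d3, Per1 and Mt1 were each lost with at least 1 of the 4 arrays left out. The Mt2 difference could not be fitted without array A of the Puro vector for CDH1, and its call held without any other array. Between the Puro vector lines, 5 of the 11 were lower and 0 higher in the line for Cluster 1 than in the line for CDH1 (5.23% and 4.89% of all genes), among them Hsd11b1 by -1.78 and Tsc22d3 by -0.92 (limma, adjusted p = 0.000361 and 0.00522).

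All 16 growth factor response genes were tested. In Cluster 1, 1 rose and 2 fell (4.89% and 3.42% of all genes): Phlda1 rose by 0.64 (limma, adjusted p = 0.000569), Areg, which encodes amphiregulin, fell by 0.72 (limma, adjusted p = 0.0307), and Spry2 fell by 0.25 (limma, adjusted p = 0.0291). The calls of Areg and Spry2 were lost when any 1 of the 4 arrays was left out. In Cluster 2, 1 rose and 1 fell (1.75% and 1.05%). Dusp6, a phosphatase of ERK induced by growth factors, fell by 0.58 (limma, adjusted p = 0.00055) and Hbegf rose by 0.43 (limma, adjusted p = 0.0186, called under 1 of 6 other settings). In Clusters 1+2, 5 rose and 6 fell (12.1% and 12.8%), with Dusp6 at -1.51 (limma, adjusted p = 1.55e-08), Spry4 at -0.86 (limma, adjusted p = 1.83e-05), Spred1 at -0.70 (limma, adjusted p = 2.48e-05) and Myc at 0.75 (limma, adjusted p = 2.16e-05). In CDH1, 3 rose and 3 fell (7.69% and 6.91%), with Dusp6 at -0.64 (limma, adjusted p = 8.87e-05), Phlda1 at -0.54 (limma, adjusted p = 0.000913), Plaur at 0.63 (limma, adjusted p = 0.000436) and Hbegf at 0.40 (limma, adjusted p = 0.00801). Both Hbegf calls were lost with at least 1 array left out. Between the Puro vector lines 2 of the 16 were higher and 2 lower (4.89% and 5.23% of all genes), and Plaur differed by 0.33 and Hbegf by -0.31 (the line for Cluster 1 minus the line for CDH1, limma, adjusted p = 0.032 and 0.043). List medians were 0.12, -0.05, -0.07 and -0.02 in Cluster 1, Cluster 2, Clusters 1+2 and CDH1.

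Of 21 other angiogenesis ligands and receptors, 18 were tested. In Cluster 1, 3 rose and 2 fell (4.89% and 3.42% of all genes). Thbs1, which encodes the angiogenesis inhibitor thrombospondin 1, rose by 0.82 (limma, adjusted p = 0.0143), Vegfc rose by 0.63 (limma, adjusted p = 0.000381) and Pgf, placental growth factor, rose by 0.51 (limma, adjusted p = 0.0199). Flt1, a receptor of VEGF, fell by 0.71 (limma, adjusted p = 4.8e-05). The calls of Thbs1 and Pgf were lost without some single arrays. In Cluster 2, 2 rose and 1 fell (1.75% and 1.05%): Thbs1 by 1.17 (limma, adjusted p = 0.00325) and Angptl4 by 0.58 (limma, adjusted p = 0.0285, lost without some single arrays) higher, and Flt1 by -0.79 (limma, adjusted p = 2.55e-05).

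In Clusters 1+2, 3 of the 18 rose and 6 fell (12.1% and 12.8% of all genes). Flt1 fell by 2.34 (limma, adjusted p = 3.6e-10), Angptl2 fell by 0.997 (limma, adjusted p = 6.37e-06) and Angpt2 fell by 0.95 (limma, adjusted p = 1.38e-05), and Thbs1 rose by 1.85 (limma, adjusted p = 9.08e-06). In CDH1, 7 fell and 1 rose (6.91% and 7.69% of all genes), with a list median of -0.24 against 0.01 for all genes. Vegfc fell by 0.90 (limma, adjusted p = 1.27e-05), Vegfa by 0.83 (limma, adjusted p = 3.44e-06), Vegfd by 0.65 (limma, adjusted p = 0.00255) and Angpt2 by 0.80 (limma, adjusted p = 0.00016), although Angpt2 differed by 0.05 with marked spots kept. Between the Puro vector lines, 6 of the 18 were lower and 1 higher in the line for Cluster 1 than in the line for CDH1 (5.23% and 4.89% of all genes), with a median of -0.28. Vegfc, Vegfa and Angpt2 differed there by -0.54, -0.50 and -0.97 (limma, adjusted p = 0.000904, 0.000283 and 5.14e-05). Flt1, which fell in Cluster 1, differed there by 0.49 (limma, adjusted p = 0.000537). Vegfc, which rose in Cluster 1, was thus set against a control that lay below the other Puro vector line (-0.54).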

How the data were processed

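Expression was measured on 16 arrays of 2 colours, 2 per group. The deposited scanner files give spot intensity in each channel, measured, per the file headers, with Agilent Feature Extraction 9.5.3.1 (design 014868, probe positions in mm7). The deposited series matrix holds 1 linear ratio per spot. It equalled the processed sample signal over the reference signal on all 16 arrays (largest log10 difference 8.06e-08) and was not used further; its column medians ran from 0.903 to 1.18.

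From the deposited intensity values, spots the software marked (335 to 1675 per array) were set missing, background was corrected with normexp (offset 50), each array was normalised by loess, and all ratios were turned to sample over reference. A probe passed if well above background on both arrays of a group. Accession, current symbol or synonym in RefSeq named the probes (22951, 6659 and 3109 of 41174), and the brightest passing probe stood for a gene. For Prl2c3 the 2 brightest differed by 0.0026 in mean log2 intensity. limma 3.58.1 in R 4.3.3 fitted 8 group means to 18900 genes, with Benjamini-Hochberg adjustment over all genes and a threshold of 0.05. The fit was tested on simulated data.

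Where a gene was well above background on 0 arrays of a group, the fold against it is a bound from the lowest such signal per array; where on 1 of 2, the fitted difference is given and the number of arrays stated. The number of arrays limits the precision. The members and gene lists were chosen with earlier results of these data known. Named were the proliferin genes with every probe, list genes called in a comparison (the 4 with the largest difference where more were called), and the 8 most alike profiles. Alternatives were a smaller offset, processed signals, median centring, scaled spread, the sample channel alone, marked spots kept, no filter, the mean over probes, the replicate number as a block, each array left out and the other Puro vector. The second brightest probe was added after seeing the data. In the Cy3 groups the repeat letters follow slides, with a correlation of repeat differences of 0.275 (Cluster 2) and 0.334 (Clusters 1+2), against -0.0141 (Cluster 1) and 0.0125 (CDH1) in the Cy5 groups, where they name arrays only.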

Additional observations from a re-analysis of the deposited data

Results flagged for a closer look

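Proliferin differences from the own vector line were positive in CDH1 cells and negative in the miRNA lines compared here, with both CDH1 arrays above and both miRNA arrays below their controls. Prl2c3 in Cluster 2 is not among them, since its arrays overlapped those of the Hygro vector, and the Cluster 2 difference of Prl2c5 turned positive, to 0.02, with median centring. For Prl2c5 the CDH1 difference exceeded that of Cluster 1 by 2.714, that of Clusters 1+2 by 1.609 and that of Cluster 2 by 1.428 on the log2 scale. For Prl2c3 it exceeded that of Cluster 1 by 2.548 and that of Clusters 1+2 by 1.528. These gaps between differences were not tested, since the differences themselves chose the genes. CDH1 and Cluster 1 cells lay on different slides, and the Puro vector lines differed by 0.93 for Prl2c5 and 0.83 for Prl2c3. Set directly against each other, CDH1 cells had 1.78 (SE 0.0884) more Prl2c5 and 1.72 (SE 0.106) more Prl2c3 than Cluster 1 cells.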

How the results depend on the processing

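The proliferin differences kept their sign under every alternative in Cluster 1, Clusters 1+2 and CDH1, and their size depended on the setting. In Cluster 1 the median of the 2 genes was -1.516. It was -1.754 with an offset of 10, -2.033 with processed signals, -1.770 with median centring, -1.922 with scaled spread, -2.019 with the sample channel alone, -0.9994 with marked spots kept, -1.121 with the mean over probes, -1.149 with the second brightest probe and -0.6361 against the other Puro vector. In CDH1 the median was 1.115, and it was 1.425 with median centring, 1.270 with scaled spread, 1.242 with the sample channel alone, 1.519 with marked spots kept, 1.229 with the second brightest probe and 0.2349 against the other Puro vector. In Clusters 1+2 the median was -0.4540, and it was -0.6437 with the sample channel alone, -0.5423 with marked spots kept, -0.5199 with the mean over probes and -0.5784 with the second brightest probe. In Cluster 2 median centring reversed the median to 0.08186, with 0.1445 for Prl2c3 and 0.01921 for Prl2c5. The cause of these shifts was not tested. The mean over probes takes in A_51_P312780, which was not well above background on the Cy5 arrays.

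Leaving out each array in turn gave medians from -1.602 to -1.430 in Cluster 1, from -0.2409 to -0.1455 in Cluster 2, from -0.4792 to -0.4289 in Clusters 1+2 and from 1.037 to 1.192 in CDH1. A lone array is then assumed to vary like the other groups. The replicate block left all 4 medians (-1.516, -0.1932, -0.4540 and 1.115) and the differences between vector lines as they were. Every group held both repeat letters, so the block could not change these differences, and nothing is read from it.

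Numbers of genes called over the whole array varied more. Cluster 1 had 1568, but 193 with marked spots kept and 678 to 987 with an array left out. Cluster 2 had 527, but 72 to 2283 over the settings. Clusters 1+2 had 4705, but 1873 with scaled spread, and CDH1 had 2759, but 1244 with marked spots kept and 1548 with 1 array left out. Between the Puro vector lines 1911 genes were called, but 529 with marked spots kept, and between the Cy3 vector lines 7 were, but 0 to 348. Of 106 calls of list genes in the 4 overexpression comparisons, 103 kept their sign under all 6 settings of background and scaling, 37 were called under all 6, and 61 were called with any single array left out. Dim spots limit the proliferin values on the Cy5 arrays, where the reference channel was well above background for 31 of 40 spots.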
